A study of Homo sapiens with 4 samples.

Results

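Chromatin accessibility was examined at 10 genes of the machinery that moves cells out of G1: the kinases CDK6 and CDK4, the D cyclins CCND1, CCND2 and CCND3, the inhibitors CDKN2A, CDKN2B, CDKN2C and CDKN1B, and their substrate RB1. Peaks were taken where they overlapped the gene body or the 20 kb on either side of it in GENCODE 44 lifted to GRCh37. This rule uses positions alone, though the members were chosen with earlier results of these data known. In all, 157 of 139872 consensus peaks qualified. They made 165 pairs of a gene and a peak, since 8 peaks fell within 20 kb of both CDKN2A and CDKN2B, and every member had at least 3 peaks. The libraries were ATAC-seq, in which a transposase cuts and tags open DNA, from SEM cells, a line of B cell precursor leukemia with a rearranged MLL gene. All of the cells carried dCas9-KRAB, which silences the chromatin at the site to which a guide RNA leads it. In 2 libraries the guide was sgFLT3-DE-1, directed at a distal enhancer of FLT3, and in 2 control libraries it was the non-target guide sgNT. No member gene was itself targeted, so the question is whether the chromatin of this cell cycle module differed between cells with the FLT3 enhancer guide and control cells.

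As background, a D cyclin binds CDK4 or CDK6 and activates it, and the kinase then phosphorylates the retinoblastoma protein RB1, which sets E2F transcription factors free to switch on the genes of S phase. CDKN2A, CDKN2B and CDKN2C encode small proteins of the INK4 family that bind CDK4 and CDK6 directly and keep the cyclin off, and CDKN2A also encodes ARF, a protein of a different reading frame that acts on the p53 pathway from a start of its own further upstream. CDKN1B encodes p27, an inhibitor of cyclin and CDK complexes. CDK6 is the more prominent of the kinase pair in blood cells and a known dependency of MLL-rearranged leukemia, and loss of CDKN2A and CDKN2B is a common lesion of B cell precursor leukemia.

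The sequences that matter most here are those of the CDK6 intron site which the study lists as bound by the homeobox factor HOXA9. It was the only such site found to overlap a member peak. It lies on the plus strand of GRCh37 in a peak of 692 bp, chromosome 7 from 92384220 to 92384911, in intron 3 of the canonical CDK6 transcript and 81.0 kb from its start. The study designed the guides sgCDK6_8 and sgCDK6_54 against this site. Both matched the genome inside the peak on the plus strand, at positions 10 and 381 counted from its first base, and neither was used in these 4 libraries. They are shown with the PAM in capitals, and the stretch of 300 bases after them, chr7:92384430-92384729, has the sgCDK6_54 site and the match to the MEIS motif TGACAG in capitals.
sgCDK6_8: cgctctagtccccttccctgTGG
sgCDK6_54: acctcggggaacgtctggagGGG
CDK6 intron 3 peak: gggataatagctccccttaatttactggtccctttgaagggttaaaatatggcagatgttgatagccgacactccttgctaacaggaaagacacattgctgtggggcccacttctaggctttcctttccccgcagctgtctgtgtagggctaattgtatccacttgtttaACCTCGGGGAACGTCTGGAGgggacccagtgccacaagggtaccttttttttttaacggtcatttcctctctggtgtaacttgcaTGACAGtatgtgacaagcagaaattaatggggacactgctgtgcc

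On both strands of the whole 692 bp the peak held 1 TGACAG, at position 466, 2 matches to the RUNX motif TGTGGT, at positions 163 and 650, and 1 to the NFY motif CCAAT, at position 509. Windows of this length centred on the 118844 peaks outside promoters held these motifs in 40.3%, 52.6% and 63% of cases, so none of the 3 matches is rare. The HOX with PBX motif TGATTTAT, present in 4.93% of the windows, was not found in it, nor were CCGGAA (ETS), GGGCGG (SP family), TTTCCCGC or TTTGGCGC (both E2F). These are letter matches and say nothing on binding.

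Promoter sequence is shown for 3 members with mostly lower estimates with sgFLT3-DE-1, though no peak of theirs passed the test below. It is given as the 200 bases before the canonical start in the direction of transcription, with matches to the same 8 motifs in capitals. CDK6 (chr7:92465888-92466087, minus strand), CCND3 (chr6:41909547-41909746, minus strand) and CDKN1B (chr12:12870102-12870301, plus strand) each had a peak over or beside this stretch.
CDK6: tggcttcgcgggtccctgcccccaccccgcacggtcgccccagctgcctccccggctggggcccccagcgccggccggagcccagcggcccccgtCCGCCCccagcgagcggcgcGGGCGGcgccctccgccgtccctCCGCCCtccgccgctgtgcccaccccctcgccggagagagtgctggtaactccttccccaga
CCND3: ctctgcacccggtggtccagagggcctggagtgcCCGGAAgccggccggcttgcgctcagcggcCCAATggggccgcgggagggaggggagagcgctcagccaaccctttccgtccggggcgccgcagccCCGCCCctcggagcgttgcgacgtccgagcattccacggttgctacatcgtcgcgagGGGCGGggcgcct
CDKN1B: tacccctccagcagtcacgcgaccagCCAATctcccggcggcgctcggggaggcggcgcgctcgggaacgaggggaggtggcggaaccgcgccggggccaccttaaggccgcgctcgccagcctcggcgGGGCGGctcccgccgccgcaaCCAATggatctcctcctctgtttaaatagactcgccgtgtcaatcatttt

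GGGCGG occurred in all 9 of the canonical promoters searched, CCND2 not being among them, and in 56.8% of all 19540 promoters of that length. CCAAT occurred in CCND3, CDKN2C and CDKN1B (30.4% of all promoters) and CCGGAA in CCND3 (17.3%). Matches to the E2F motifs are scarcer. TTTGGCGC, in 0.583% of promoters, was found before the CCND1 start, and TTTCCCGC, in 1.59%, was found 25 bases before the RB1 start, close to a GGGCGG at 40 bases. The RB1 stretch, chr13:48877847-48877876 on the plus strand, is shown for that pair.
RB1: GGGCGGaagtgacgtTTTCCCGCggttgga

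The libraries held between 2683477 and 4831164 counts in peaks, with the sgNT libraries the shallower ones. The labels do not say whether libraries came from separate cultures, so p-values measure the spread between these libraries only. Intervals of single counts would cover counting error only, and reads carried no molecular identifiers. By the number of genes with a promoter peak, the markers went with the label of the line. A peak was present at 8 of 9 B cell precursor genes, with PAX5, EBF1 and RAG1 among them and CD79A the exception, against 2 of 6 T cell, 3 of 6 myeloid and 1 of 4 erythroid genes. A promoter peak with enough counts to be tested was present at 7, 1, 1 and 1 genes of these lists. The B cell precursor promoters summed to 132 and 176 normalised CPM with sgFLT3-DE-1, against 153 and 179 with sgNT, where normalised CPM scales counts to libraries of equal, TMM-adjusted size. The sums were 19.2 and 13.7 against 10.0 and 14.8 for the T cell genes, and 5.56 and 10.6 against 6.02 and 6.81 for the myeloid genes, so none of these 3 lists separated the guides. The erythroid list did, through HBB alone (573 and 239 against 60.8 and 45.2). In every library, those of sgNT included, the HBB sum was above that of each B cell precursor gene, so by level the markers did not all go with the label. The part of these lists in the results below was not tested.

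Of the 157 peaks, 114 had enough counts to be tested. None passed an FDR of 0.05 in edgeR's quasi-likelihood test with Benjamini-Hochberg adjustment over all 82558 tested peaks, of which 2 (0.00242%) passed. Both of these lay at HBB and were higher with sgFLT3-DE-1, so no peak passed as lower. The paper, in its own analysis by another method, reports the guide's target as its most significantly decreased peak, at an FDR below 0.05. That decrease did not pass here, so a member peak that did not pass may still have changed. DESeq2 and limma-voom passed none of the 114 peaks either (against 0.00121% and 0.00363% of all tested peaks), nor did edgeR with the replicate number as a block (against 0.0896%). At an unadjusted p under 0.05 there was 1 member peak in edgeR (0.877%, against 1.9% of all tested peaks), 1 in limma-voom (against 1.6%) and 0 in DESeq2 (against 0.237%). With the block there were 13 (against 8.25%), but the labels do not say that the number marks a batch. Beyond 2 standard errors from 0 there was 1 (against 2.18%). The median standard error of a member peak was 0.356 on the log2 scale, so a difference under about 2 such errors could not be resolved at a single peak.

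The estimates leaned to one side. Of the 114 tested peaks, 80 (70.2%) had a lower estimate with sgFLT3-DE-1, against 48.1% of all tested peaks, and their median log2 fold change was -0.11, against 0.015. The estimates ran between -0.95 and 0.64. Both sgFLT3-DE-1 libraries lay below both sgNT libraries at 34 peaks (29.8%, against 13.8% of all tested peaks), and above both at 6 (5.26%, against 13.7%). Promoter peaks in general leaned the same way: among all 18160 tested promoter peaks 62.7% had a lower estimate, with a median of -0.090 and 23.3% with both sgFLT3-DE-1 libraries lower. The members' own 28 tested promoter peaks had 18 lower estimates, a median of -0.23 and 13 (46.4%) with both sgFLT3-DE-1 libraries lower. The size of the lean changed when a library was left out. The median over members was -0.34 without sgFLT3-DE-1 library 2 and -0.045 without sgFLT3-DE-1 library 1. Such fits leave the library numbers unbalanced between the guides, and with the replicate number as a block the median was -0.14. The genes did not share the lean evenly, as the plot of fold changes by gene shows.

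**Figure D1:**
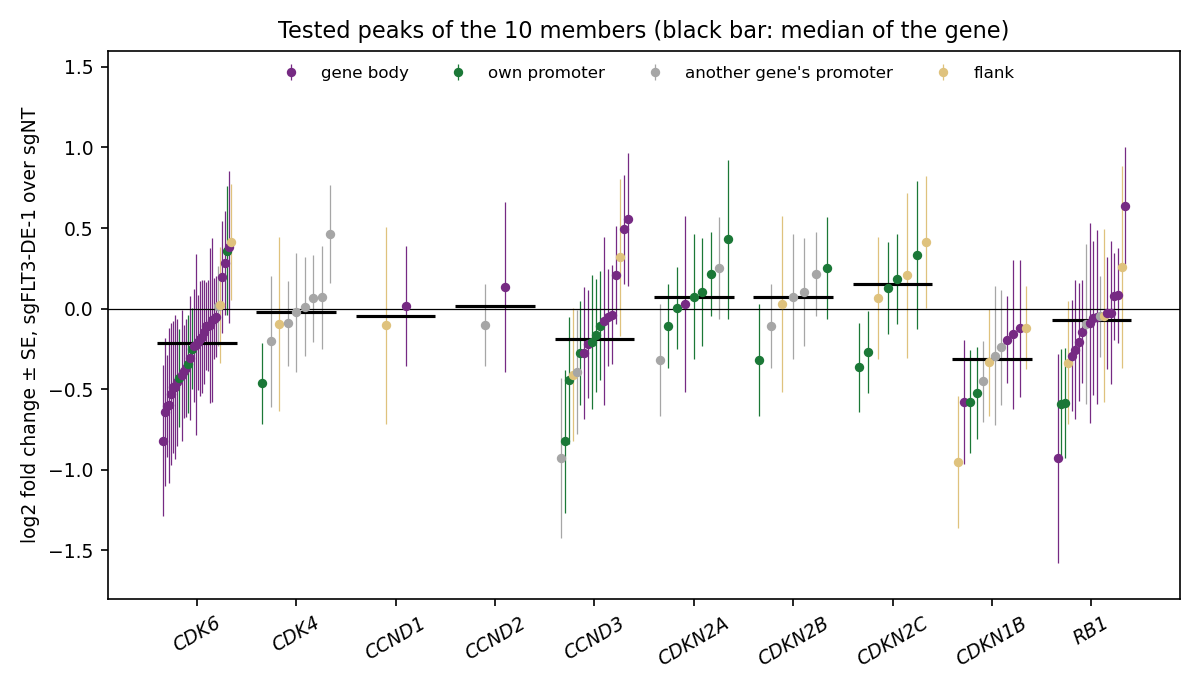
Log2 fold change (y axis, sgFLT3-DE-1 over sgNT) with its standard error for each tested peak of the 10 members, sorted within each gene and coloured by the class of the peak, with a black bar at the gene's median. All 12 CDKN1B peaks and 27 of 34 CDK6 peaks lie below 0, 7 of 9 CDKN2A peaks lie above it, and the error bars of most peaks reach across it.

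CDK6 had the most peaks of the 10 genes, 51 in all: 4 at its own starts, 1 in an exon, 39 in introns, 1 at the promoter of FAM133B beyond its 3' end and 6 in the upstream flank. In the gene body this came to 44 peaks in 231.7 kb, or 19.0 per 100 kb. Among 1481 other coding genes within 1.5 times its length the median was 5.12 per 100 kb, and 99.6% of them had a lower density. CCND3 (13.0 per 100 kb) and RB1 (8.12 per 100 kb) stood above 93.7% and 83.6% of genes of their own lengths. Introns 2 and 3 of CDK6 held 11 and 13 of the peaks, intron 5 held 7 and intron 4 held 5.

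**Figure D2:**
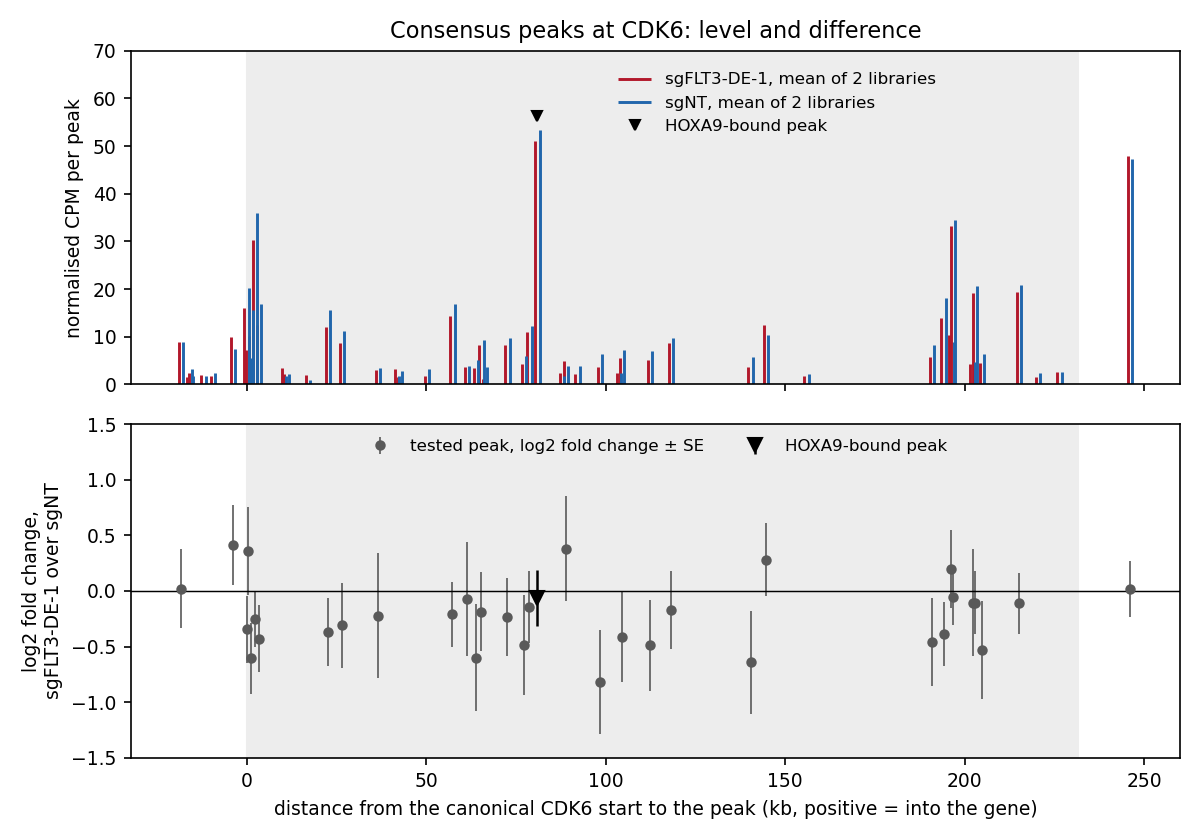
Peaks of CDK6 by distance from the canonical start (x axis, kb, grey band: gene body), with the mean normalised CPM per peak of each guide above and the log2 fold change with its standard error below. The HOXA9-bound peak at 81.0 kb has the highest level per peak, with no scaling for its length, and a fold change of -0.064, while 24 of the 27 tested intron peaks lie below 0.

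The HOXA9-bound peak in intron 3 had the highest mean count of the 51 CDK6 peaks, whose median length was 185 bp, against its own 692 bp. Per kb it ranked at number 5 of the 51, above 96.3% of all peaks outside promoters. The raw counts there were 154 and 246 with sgFLT3-DE-1, against 167 and 127 with sgNT. Normalised CPM was 47.6 and 54.4 with sgFLT3-DE-1, against 55.8 and 50.9 with sgNT. The groups overlapped. edgeR put the log2 fold change at -0.064 (SE 0.252, 95% interval between -0.58 and 0.45, adjusted p of 1.0). This fit could not resolve a change smaller than that interval allows. With the replicate number as a block the estimate was again -0.064, with an SE of 0.139.

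The CDK6 intron peaks leaned lower. Of 27 tested intron peaks, the HOXA9-bound one among them, 24 had a lower estimate (median -0.22), against 44% of all tested peaks outside promoters, and at 12 of them (44.4%, against 11.1%) both sgFLT3-DE-1 libraries lay below both sgNT libraries. None of the 27 had an unadjusted p under 0.05. The size of this lean depended on the count filter. A fit limited to peaks averaging 50 counts or more kept 6 of the CDK6 intron peaks. All 6 had a lower estimate, but their median was -0.069, against -0.22 over the 27. When each library was left out in turn, 24 of 31, 26 of 31, 26 of 34 and 24 of 31 tested intron peaks had a lower estimate. In the 2 Mb on either side, outside the CDK6 window, 65 of 127 tested peaks (51.2%) had a lower estimate, with a median of -0.0070. Summed over the gene body outside promoters, CDK6 had 301 and 341 normalised CPM with sgFLT3-DE-1, against 361 and 373 with sgNT, and the groups did not overlap. The ratio of the means was 0.874.

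At the CDK6 starts the peaks did not move together. The peak over the canonical start, chromosome 7 from 92465779 to 92466085, had 13.6 and 18.4 normalised CPM with sgFLT3-DE-1, against 25.7 and 14.8 with sgNT (log2 fold change -0.34, SE 0.301), and the groups overlapped. The largest start peak, from 92463142 to 92463550 and near the second annotated start, had 28.4 and 32.1 with sgFLT3-DE-1, against 36.8 and 35.2 with sgNT, with a fold change of -0.25 (SE 0.253). Its neighbour from 92462345 to 92462505 had 10.2 and 14.6 against 17.7 and 16.0 (-0.43, SE 0.304). A short peak of 86 bp from 92465298 went the other way, with 7.72 and 6.85 with sgFLT3-DE-1, against 5.68 and 5.61 with sgNT (0.36, SE 0.399). The CDK6 peak of smallest p lay in intron 1, from 92464526 to 92464710. It had 8.34 and 11.9 with sgFLT3-DE-1, against 15.7 and 15.6 with sgNT (-0.61, SE 0.316, adjusted p = 1.0 by edgeR). The difference at all of these was under 2 standard errors.

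CDK4, the partner kinase, sits in a crowded stretch of chromosome 12. Of its 9 peaks 1 was its own promoter and 7 were promoters of AGAP2, TSPAN31, MARCHF9, METTL1 or EEF1AKMT3. The promoter peak, from 58146021 to 58146536, had 30.6 and 31.2 normalised CPM with sgFLT3-DE-1, against 45.5 and 39.6 with sgNT. Both sgFLT3-DE-1 libraries thus lay below both sgNT libraries, as at 23.3% of all tested promoter peaks. The log2 fold change of -0.46 (SE 0.251) did not pass (adjusted p = 1.0 by edgeR), and its 95% interval ran between -0.98 and 0.051. The neighbours did not share it. An AGAP2 promoter peak in the window, from 58134893 to 58135107, had 14.2 and 20.1 with sgFLT3-DE-1, against 12.7 and 12.4 with sgNT (0.46, SE 0.304), and 5 of the 9 tested peaks had lower and 4 higher estimates. The largest peak outside promoters was a flank peak of 104 bp with counts between 7 and 20 and a fold change of -0.095 (SE 0.539).

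The D cyclins differed from each other in their number of peaks, over gene bodies of unlike length. These were 115.4 kb at CCND3, 13.3 kb at CCND1 and 35.6 kb at CCND2. CCND3, the D cyclin with the most peaks, had 21, including 6 within 1 kb of an annotated start, because its annotated isoforms start as far upstream as the TAF8 promoter. CCND1 had 8 peaks and CCND2 had 3. CCND2 had no peak within 1 kb of any of its 3 annotated starts, and none within 2 kb either. Of its 3 peaks, 2 were promoter peaks of TIGAR, the gene next to it, and 1 of 208 bp lay in an intron, with 2.78 and 5.09 normalised CPM with sgFLT3-DE-1, against 2.34 and 5.20 with sgNT (log2 fold change 0.13, SE 0.529). At CCND1 the promoter peak was 86 bp long and had 6 and 12 counts with sgFLT3-DE-1, against 0 and 4 with sgNT, too few to be tested. The count of 0, in sgNT library 1, allows up to 3 counts, or 1.0 normalised CPM. The largest CCND1 peak, in intron 2, had 6.18 and 11.9 with sgFLT3-DE-1, against 7.69 and 10.8 with sgNT (0.015, SE 0.371), and the groups overlapped.

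At CCND3 the peak over the canonical start, chromosome 6 from 41909425 to 41909693, had 8.96 and 12.8 normalised CPM with sgFLT3-DE-1, against 12.0 and 14.8 with sgNT (log2 fold change -0.28, SE 0.324). The start peak of lowest estimate, from 42018171 to 42018319, is shared with TAF8 and had 3.09 and 4.20 against 6.02 and 7.21 (-0.82, SE 0.446, adjusted p = 1.0 by edgeR). The start peak from 42018458 is shared with TAF8 as well. Apart from the lowest, the start peaks had fold changes between -0.44 and -0.11, so all 6 had lower estimates (against 62.7% of all tested promoter peaks). At 3 of the 6 (against 23.3% of those) both sgFLT3-DE-1 libraries lay below both sgNT libraries. The largest CCND3 peak, from 41903925 to 41904298 and over an exon of one isoform, had 15.1 and 29.6 with sgFLT3-DE-1, against 16.7 and 22.8 with sgNT (0.21, SE 0.304). An intron peak from 41990089 to 41990622 had 10.5 and 19.9 against 9.36 and 12.8 (0.49, SE 0.338). Close to the 3' end, at the promoter shared by BYSL and MED20, the peak from 41889127 to 41889320 had 1.54 and 4.64 against 5.35 and 7.21 (-0.93, SE 0.496). In all, 14 of 18 tested CCND3 peaks had a lower estimate, but the count was 18 of 18 without sgFLT3-DE-1 library 2 and 7 of 19 without sgNT library 2. Leaving out a library also leaves the library numbers unbalanced between the guides. With the replicate number as a block, and all 4 libraries kept, 14 of 18 had a lower estimate.

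Among the INK4 inhibitors, CDKN2A and CDKN2B both had peaks with counts in every library, in a block of 9p21 that is often deleted in this leukemia. CDKN2A had 11 peaks, 6 of them at its starts. The peak over the start of the INK4 transcript, chromosome 9 from 21974740 to 21975356, had 57.5 and 52.0 normalised CPM with sgFLT3-DE-1, against 59.2 and 49.6 with sgNT (log2 fold change 0.0039, SE 0.254). The peak over the upstream start that leads into the ARF reading frame, from 21994306 to 21994867, had 81.5 and 68.1 against 90.9 and 69.7 (-0.11, SE 0.262), and its level per kb exceeded that of 96.0% of promoter peaks. Its neighbour from 21995014 to 21995512 had 62.1 and 55.9 against 58.8 and 42.4 (0.21, SE 0.259). The groups overlapped at all 6. The 3 smaller start peaks had fold changes between 0.074 and 0.43. The largest peak outside promoters, 135 bp from 21988597, had 5.25 and 2.43 against 4.34 and 2.80 (0.031, SE 0.546).

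CDKN2B had 8 peaks, of which 2 were its own and 4 were starts of CDKN2A. Its start peak, from 22009241 to 22009499, had 16.7 and 12.2 normalised CPM with sgFLT3-DE-1, against 12.7 and 11.2 with sgNT (log2 fold change 0.25, SE 0.315). The second, from 22008659 to 22008851 in intron 1, had 7.72 and 8.84 against 10.0 and 10.8 (-0.32, SE 0.346). It was the 1 tested peak of the locus where the guides did not overlap. Among all tested promoter peaks 23.3% had both sgFLT3-DE-1 libraries lower and 7.7% both higher. At CDKN2A 7 of 9 tested peaks had a higher estimate (median 0.074), at CDKN2B 5 of 7. This side changed with the libraries: 2 of the 9 CDKN2A peaks had a higher estimate without sgNT library 2, and 8 of 9 without sgNT library 1. With the replicate number as a block, and all 4 libraries kept, 7 of 9 had a higher estimate.

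The neighbours at 9p21 had open peaks as well. Peaks within gene bodies summed to 228 and 185 normalised CPM with sgFLT3-DE-1, against 233 and 200.2 with sgNT, over the 16 peaks of MTAP, a methionine salvage gene that is often lost with CDKN2A. The sums were 226 and 191 against 227 and 178 over 7 peaks in CDKN2A, and 24.4 and 21.01 against 22.7 and 22.0 over the 2 peaks in CDKN2B. The antisense transcript CDKN2B-AS1, which overlaps both, had 15 peaks with 327 and 281 against 314 and 257, and DMRTA1 had 4 peaks with 87.7 and 61.0 against 89.2 and 67.7. A peak that lies in 2 of these genes entered the sum of each. None of the 5 genes separated the guides.

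CDKN2C, another INK4 gene, had 12 peaks, 5 of them within 1 kb of an annotated start. The peak over the canonical start, chromosome 1 from 51435467 to 51435965, had 21.3 and 20.3 normalised CPM with sgFLT3-DE-1, against 16.0 and 20.8 with sgNT (log2 fold change 0.18, SE 0.279). The largest peak, from 51425580 to 51426183, covers the start of FAF1 and ends 234 bp before that of the most upstream CDKN2C isoform. It had 27.8 and 26.5 against 33.1 and 32.4 (-0.27, SE 0.255). A start peak from 51434153 to 51434417 had 20.1 and 16.4 against 26.1 and 20.4 (-0.37, SE 0.277). At both of these the sgFLT3-DE-1 libraries lay below both sgNT libraries, as at 23.3% of all tested promoter peaks. The other 6 tested peaks had higher estimates, for example 0.13 (SE 0.284) from 51433788 and 0.33 (SE 0.461) from 51434609. Outside promoters the largest peak, from 51442752 to 51443202, had 7.10 and 8.18 against 6.02 and 8.81 (0.066, SE 0.381). The 6 of 8 turned to 0 of 9 without sgNT library 1, and stayed at 6 of 8 with the replicate number as a block and all 4 libraries.

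The window of CDKN1B, the gene of p27, leaned lower. All 12 of its tested peaks had a lower estimate with sgFLT3-DE-1 (median -0.31), and at 7 of them (58.3%, against 13.8% of all tested peaks) both sgFLT3-DE-1 libraries lay below both sgNT libraries. The window had 14 peaks, none overlapping the canonical CDKN1B transcript, and 12 of the 14 had a lower estimate with no filter. Of the 14, 4 lay in the gene body upstream of the canonical start, 4 at promoters of GPR19 or APOLD1 and 4 in the downstream flank. The other 2 lay just before the canonical start. The first, chromosome 12 from 12869646 to 12869999, had 12.4 and 15.0 normalised CPM with sgFLT3-DE-1, against 20.4 and 19.2 with sgNT (log2 fold change -0.52, SE 0.288). The second, from 12870049 to 12870260, had 8.96 and 10.2 against 15.0 and 13.6 (-0.58, SE 0.318). Together they summed to 21.3 and 25.2 with sgFLT3-DE-1, against 35.4 and 32.8 with sgNT, a ratio of 0.682.

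The peak of smallest p among all members lay in the downstream flank of CDKN1B, from 12876836 to 12877025. The reads there numbered 13 and 20 with sgFLT3-DE-1, against 23 and 22 with sgNT, and normalised CPM came to 4.02 and 4.42 against 7.69 and 8.81. The log2 fold change of -0.95 (SE 0.409) had an adjusted p of 1.0 by edgeR. A large peak next to it, from 12877871 to 12879020, is the promoter of APOLD1 and had a fold change of -0.45. The largest peak outside promoters, from 12868361 to 12868886, had 20.4 and 32.1 against 32.4 and 28.0 (-0.19, SE 0.271), with overlap. Outside the window the estimates were even, with 72 of 136 tested peaks within 2 Mb (52.9%) lower and a median of -0.029. When a library was left out, between 9 of 13 and 12 of 12 tested peaks had a lower estimate.

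RB1, the substrate of the kinases, had 28 peaks in a window stretched by an isoform that GENCODE runs far past the canonical 3' end. Only 9 of the 28 overlapped the canonical transcript, and the other intron peaks lie in the extension, around RCBTB2. At both promoter peaks both sgFLT3-DE-1 libraries lay below both sgNT libraries, as was the case at 23.3% of all tested promoter peaks. The peak over the canonical start, chromosome 13 from 48877743 to 48878108, had 7.41 and 9.29 normalised CPM with sgFLT3-DE-1, against 14.7 and 10.4 with sgNT (log2 fold change -0.58, SE 0.34). The peak in intron 1, from 48878686 to 48878948, had 7.10 and 9.51 against 10.7 and 14.8 (-0.59, SE 0.342). Neither passed (adjusted p = 1.0 by edgeR), and their 95% intervals reached 0.11. The RB1 promoter sum was 14.5 and 18.8 against 25.4 and 25.2, a ratio of 0.658, the lowest ratio of the 9 members with a promoter peak.

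Of all 20 tested RB1 peaks 16 (80.0%, against 48.1% of all tested peaks) had a lower estimate, with a median of -0.073. Outside its own promoter 14 of 18 had a lower estimate (median -0.054), and at 3 of these 18 (16.7%, against 13.8% of all tested peaks) both sgFLT3-DE-1 libraries lay below both sgNT libraries. The lowest of them, from 49117010 to 49117181, had 1.24 and 2.43 normalised CPM with sgFLT3-DE-1, against 3.34 and 4.004 with sgNT (log2 fold change -0.93, SE 0.647), on counts between 4 and 11. The largest peak outside promoters, from 49066638 to 49066994, had 21.005 and 25.9 normalised CPM with sgFLT3-DE-1, against 20.4 and 24.4 with sgNT (log2 fold change 0.077, SE 0.27). The peak from 49153217 to 49153623, in the extension, had 8.96 and 13.0 against 6.35 and 8.01 (0.64, SE 0.363), the highest estimate of any member peak. Summed over the gene body outside promoters, RB1 had 116 and 130 with sgFLT3-DE-1, against 117 and 132 with sgNT. The 81 tested peaks within 2 Mb on either side of the RB1 window had 41 lower and 40 higher estimates.

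**Figure D3:**
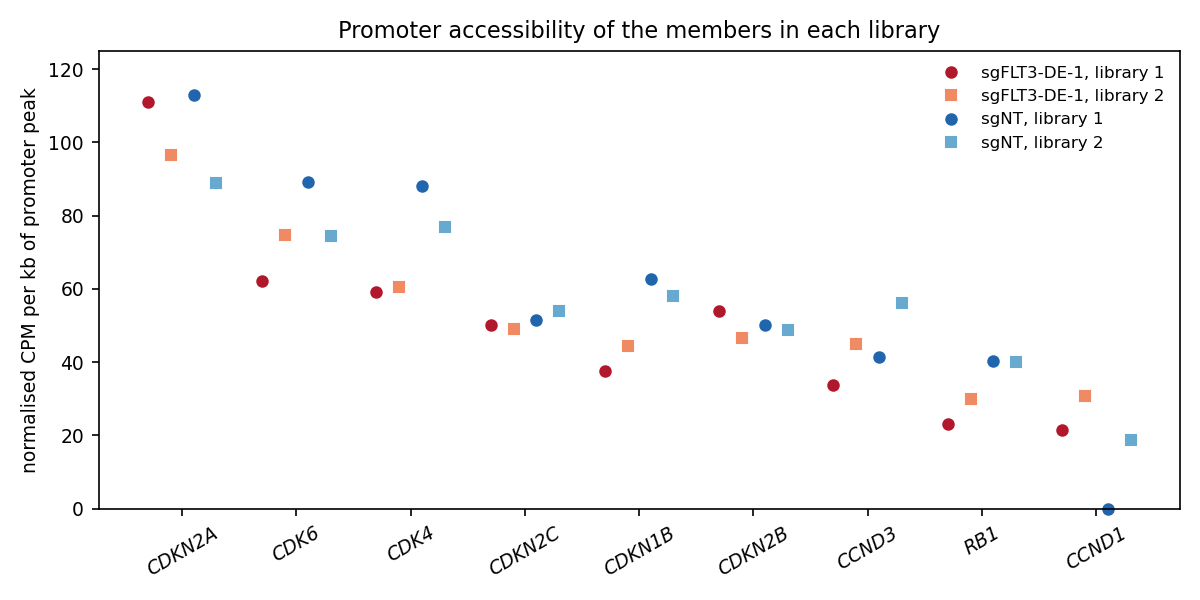
Normalised CPM per kb of promoter peak (y axis) in each of the 4 libraries for the 9 members with a promoter peak, in order of the mean over libraries. CDKN2A is highest and CCND1 lowest, and CDK4, CDKN1B and RB1 have both sgFLT3-DE-1 libraries well below both sgNT libraries. Both lay lower at 23.3% of all single tested promoter peaks.

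Per kb of promoter peak, the mean level over the 4 libraries was highest at CDKN2A with 102 normalised CPM per kb, then 75.1 at CDK6, 71.1 at CDK4, 51.1 at CDKN2C, 50.7 at CDKN1B, 49.9 at CDKN2B, 44.1 at CCND3, 33.4 at RB1 and 17.8 at CCND1. The ranges over libraries of neighbours in this order overlapped with 1 exception, between CDK4 (59.3 to 88.1) and CDKN2C (49.1 to 54.0). Among all tested promoter peaks, taken singly, 23.3% had both sgFLT3-DE-1 libraries below both sgNT libraries and 7.7% had both above. At 4 genes both sgFLT3-DE-1 libraries had a lower promoter sum than both sgNT libraries. These were CDK4 (ratio 0.726), CDKN1B, RB1 and CDKN2C (ratio 0.941, with 91.4 and 89.6 normalised CPM with sgFLT3-DE-1, against 93.9 and 98.5 with sgNT). CDKN2A (ratio 1.03) and CDKN2B (ratio 1.01) overlapped, as did CDK6 (ratio 0.836) and CCND3 (ratio 0.807). CCND1 was the 1 gene with both sgFLT3-DE-1 libraries above both sgNT libraries, with 1.85 and 2.65 normalised CPM with sgFLT3-DE-1, against 0 and 1.602 with sgNT, on the few counts given above. The ATAC signal is a bulk one, so fewer cells with an open site and a less open site in every cell cannot be told apart.

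Libraries with the same number resembled each other at several members. At CCND3, 17 of 18 tested peaks were lower in library 1 than in library 2 with both guides, against 33.1% of all tested peaks. The median log2 ratio of library 1 over library 2 at CCND3 came to -0.66 with sgFLT3-DE-1 and -0.42 with sgNT, and in the surrounding 2 Mb to -0.63 and -0.44. CCND1 and CCND2 leaned the same way, with medians of -0.88 and -0.57 at CCND1 and -0.43 and -0.64 at CCND2, each over 2 tested peaks. CDKN2A was on the other side, with 6 of 9 peaks higher in library 1 with both guides (against 32.7%) and medians of 0.26 and 0.29, and 0.24 and 0.19 in the 2 Mb around it. The spread within a guide was thus larger than the difference between guides at these genes, and the other peaks within 2 Mb showed a spread of like size. At CDK6, CDKN1B and RB1 the medians within a guide were between -0.23 and 0.079.

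**Figure D4:**
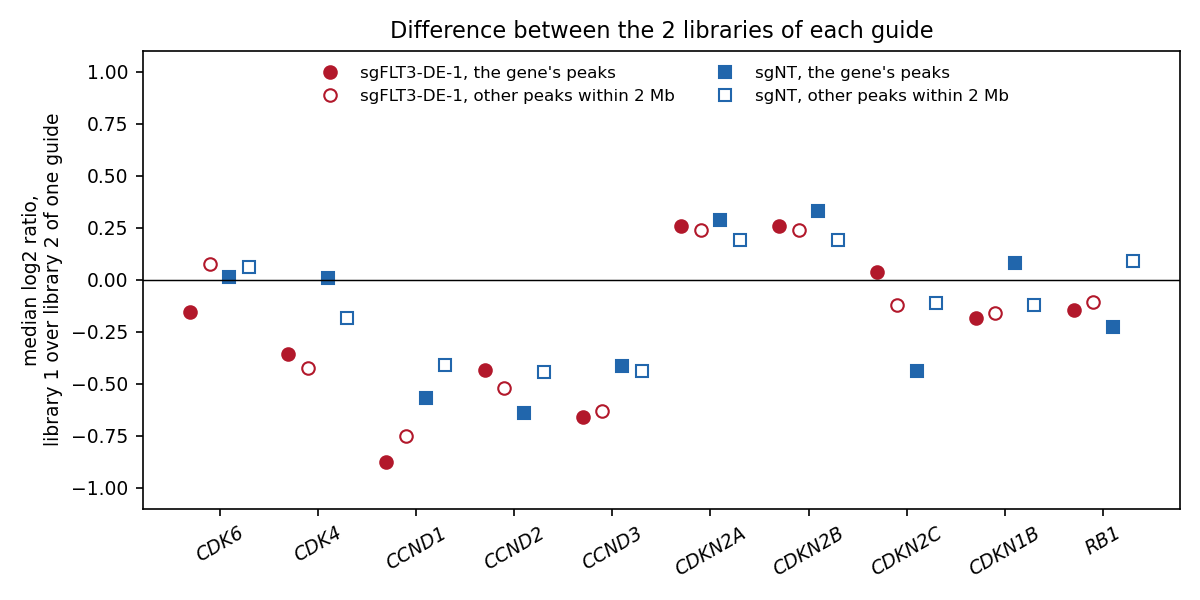
Median log2 ratio of library 1 over library 2 of the same guide (y axis) over the tested peaks of each member (filled) and over other tested peaks within 2 Mb (open), for sgFLT3-DE-1 (circles) and sgNT (squares). At CCND1, CCND2 and CCND3 all 4 values are below -0.4, and at CDKN2A and CDKN2B all 4 are above 0.

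Other genes that act at the step from G1 to S had shares near those of promoter peaks in general. Of 18 of them, taken as a list, all 18 had a promoter peak and 17 had a tested one. Of 30 tested promoter peaks 21 had a lower and 9 a higher estimate, the median was -0.13, none passed the FDR of 0.05 in either direction, and 1 had an unadjusted p under 0.05, beside a median of -0.090 and 62.7% lower over all tested promoter peaks. CCNE2, a cyclin that drives CDK2, summed to 72.0 and 76.3 normalised CPM with sgFLT3-DE-1, against 90.6 and 87.3 with sgNT. CDKN2D, the remaining INK4 gene, had 16.7 and 23.7 against 24.7 and 30.4 (log2 fold change -0.43, SE 0.273). CKS1B, which helps to mark p27 for degradation, had 31.5 and 39.6 against 43.4 and 51.6. CDK2 had 12.0 and 19.0 against 15.0 and 12.0 (0.21, SE 0.312), with overlap. CCNE1, the other cyclin E gene, had 49.4 and 39.4 against 45.1 and 35.6 (0.13, SE 0.258), and RBL2, which encodes a relative of the RB1 protein, summed to 42.6 and 38.7 against 39.8 and 32.4. The guides overlapped at both.

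The sgFLT3-DE-1 guide itself matched no site next to an NGG in any of the 10 windows on GRCh37 when up to 4 mismatches were allowed. The closest sites, at CDK6, CCND2 and RB1, had 6 mismatches.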

How the data were processed

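ATAC-seq libraries of SEM cells with dCas9-KRAB fell, by their titles and treatments, into sgFLT3-DE-1 and sgNT, 2 libraries each. The authors deposited raw counts per consensus peak for 139872 peaks on hg19 (GRCh37). The extract protocol names cutadapt 1.18 and Bowtie2 2.2.9, whereas the submitters' processing notes list MACS2 2.1.1.20160309 for peaks, with Trim Galore 0.4.4, BWA, bedtools 2.24.0 and SAMtools 1.2. Which fragments were counted, and whether cut sites were shifted for the transposase, is a point on which these sources are silent, and peaks were called in the libraries compared.

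The whole table was fitted with edgeR 4.0.16 in R 4.3.3 by the quasi-likelihood test (TMM factors, filterByExpr with a minimum count of 10 and a minimum total of 15, group as the only term), with Benjamini-Hochberg adjustment over the 82558 tested peaks and an FDR of 0.05. The standard error of a log2 fold change is its size divided by the root of the F statistic. The procedure was tested on simulated data. Depth, from 2683477 to 4831164 counts per library, and the spread between libraries set the precision of each peak. A promoter peak is one within 1 kb of the start of a protein-coding transcript in GENCODE 44 lifted to GRCh37, and sequences were read from the GRCh37 genome. The HOXA9-bound region and the guides come from the study's supplementary lists and were used as positions and sequences only.

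The members, lists and tests were chosen with earlier results of these data known. Values in each library are given for promoter peaks with 10 counts or more on average (or the largest), the HOXA9-bound CDK6 peak, the largest peak outside promoters of each gene and the 3 peaks of smallest p in each direction. The promoter peaks of other genes at the start of APOLD1 and TIGAR, the RB1 peak from 49117010, CCNE1 and RBL2 were named after their values were seen. Alternatives were DESeq2 1.42.0 and limma-voom (limma 3.58.1) in place of edgeR, relative log expression factors, total counts or loess offsets in place of TMM, no filter or a mean count of 50 or more, the replicate number as a block, each library left out, other windows, promoter distances and overlaps, and, chosen after seeing the data, a loess correction for GC content with a span of 0.3, alone and with the block. The promoter sequence of 1 member and 1 marker gene are not reported here.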

Additional observations from a re-analysis of the deposited data

How the results depend on the processing

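No member peak passed the FDR of 0.05 under any of the alternatives, and the lowest adjusted p of a member peak was 0.16, with the replicate number as a block (APOLD1 promoter in the CDKN1B window, log2 fold change -0.45, SE 0.134). With the replicate block 13 of 114 member peaks (11.4%) had an unadjusted p under 0.05, against 8.25% of all tested peaks. Deviations from the group mean correlated between libraries of the same number (r = 0.397 over peaks, which are not independent). Levels correlated more between guides for libraries numbered 1 (0.915) and 2 (0.922) than between the 2 libraries of sgFLT3-DE-1 (0.875) or sgNT (0.887). With 2 pairs that share only a number by their labels, the block is not the main fit. The main fit leaves this likeness out. The SE of the HOXA9-bound CDK6 peak was 0.252 in it, against 0.139 with the block. Over all tested peaks the count past the FDR was 2, and was 1 with total counts only, 6 with loess offsets, 5 with no filter, 0 with a mean count of at least 50, 74 with the replicate block, 1 with the GC correction, 20 with the replicate block and GC correction, 1 with DESeq2, and between 0 and 9 with a library left out. The median over member peaks ran between -0.34 and -0.045 with a library left out and between -0.16 and -0.056 under the other processing settings, and the number with a lower estimate was 20, of 30 tested, with a mean count of at least 50. Gene bodies alone gave 111 gene and peak pairs, and 50 kb on either side gave 198.

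Of 575 alternative values of the 43 tested peaks named, 529 kept their direction and 46 turned it, 33 of these with a library left out. The CDKN2A peak from 21988597 was -0.0091 with loess offsets, -0.031 with no filter, -0.027 with the GC correction and -0.15 with limma-voom. The CCND1 peak from 69458055 was -0.045 with no filter, -0.031 with the replicate block, -0.012 with DESeq2 and -0.024 with limma-voom. The CDKN2A peak from 21974740 was -0.059 with no filter, that from 21994306 was 0.058 with the GC correction and 0.063 with the replicate block and GC correction, that from 21993984 was -0.0064 with limma-voom, and the CCND3 peak from 42016372 was 0.021 with the GC correction. All of these lay within 0.11 of 0 in the reported fit, and the cause was not tested.

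With a library left out, the CDK6 HOXA9-bound peak ran between -0.18 and 0.018 and the canonical CDK6 start between -0.70 and 0.11. At CDKN2A the ranges were -0.14 to 0.13 (from 21974740), -0.58 to 0.52 (21988597), -0.39 to 0.46 (21993984), -0.31 to 0.092 (21994306), -0.022 to 0.46 (21995014) and -0.075 to 0.26 (21995951). At CDKN2C they were -0.010 to 0.23 (51433788), -0.26 to 0.82 (51434609), -0.010 to 0.35 (51435467) and -0.21 to 0.33 (51442752). At CCND3 they were -0.38 to 0.59 (41903925), -0.074 to 0.85 (41990089), -0.53 to 0.17 (42016372) and -0.63 to 0.41 (42018458). Those of CCND1 (69458055), CCND2 (4386159), CDK4 (58153309), CDKN1B (12868361) and RB1 (49066638) were -0.57 to 0.37, -0.41 to 0.75, -0.75 to 0.27, -0.58 to 0.073 and -0.096 to 0.21. A group left with 1 library was taken to vary as much as the other, and the library numbers were then unbalanced between the guides. Depth limits the smaller peaks: 43 of 157 had too few counts to be tested.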
